A study of Mus musculus with 9 samples.

Results

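The genes described here are 9 transcription factors that pattern the mesenchyme of the gut, other than the forkhead factors: Tcf21, Nkx2-3, Prrx1, Meis1, Tbx2, Tbx3, Barx1, Osr1 and Osr2. They were taken by name, as every probe set whose only gene symbol was 1 of these 9. This gave 24 of 45101 probe sets, with several probe sets for 6 of the genes, and all 9 were among the 18193 genes measured. Gene expression was measured on 9 Affymetrix arrays of small intestinal mesenchyme from C57Bl/6J mouse embryos at E18.5, shortly before birth. The tissue had been freed of epithelium, cultured for 48 h on a collagen matrix in medium with 10% serum, and given Shh (Sonic hedgehog), Ihh (Indian hedgehog) or Vehicle for 24 h, with 3 arrays per treatment. The study asked which genes of this tissue respond to the hedgehog ligands. The 6 wells of a treatment had been pooled at random into its 3 samples, so the p-values measure the spread between pools of wells and not between litters. The sources used here do not state a ligand dose.

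Shh and Ihh are made by the gut epithelium and are received by the mesenchyme beneath it, where they release the GLI transcription factors and switch on genes such as Ptch1, Gli1 and Hhip. The factors described here set the identity and position of that mesenchyme. Tcf21 is a basic helix-loop-helix factor of visceral mesenchyme, Nkx2-3 is a homeodomain factor of the mesoderm of midgut, hindgut and spleen, and Prrx1 is a paired-related homeodomain factor of fibroblasts and limb mesenchyme. Meis1 is a homeodomain cofactor that binds DNA with HOX and PBX proteins. Tbx2 and Tbx3 are closely related T-box repressors, Barx1 is a homeodomain factor best known from stomach mesenchyme, and Osr1 and Osr2 are zinc finger factors of the odd-skipped family.

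Values are log2 expression per probe set, so 1 unit is a doubling, and levels of different probe sets are not comparable with each other. Array medians lay between 5.87 and 5.92, and low values are compressed towards background, so differences of probe sets below these medians may be understated. All 3 genes of the treatment check, Ptch1, Gli1 and Hhip, rose over both ligands (adjusted p of 0.000622, 0.0443 and 0.0243, limma). Ptch1 lay at 9.06 to 9.25 on the Vehicle arrays and at 10.35 to 10.98 on the treated arrays, while the calls of Gli1 and Hhip ended without certain single arrays (adjusted p up to 0.155 and 0.119). The call of Gli1 also ended on repeating quantile normalization, with a trended and robust variance and with every probe set tested singly (0.0527 to 0.0565). Averaged over the 9 fibroblast markers the arrays lay between 11.19 and 11.54, and over the 9 epithelium markers between 5.77 on Vehicle 3 and 7.66 on Shh 3. The fibroblast mean was thus high on every array, although its marker Thy1 lay at 6.07 to 7.35. The epithelium mean varied within each treatment. Of its markers Krt8 lay at 7.54 to 10.62 and Cdx1 at 3.97 to 4.38. The X-inactivation transcript Xist was at 10.83 on Vehicle 1 against 6.34 and 6.48 on Vehicle 2 and 3, at 11.31, 11.24 and 6.43 on Shh 1, 2 and 3, and at 10.04 to 10.66 on the Ihh arrays. The Y-linked gene Eif2s3y was at 3.24 and 3.17 on Shh 1 and Shh 2 and at 6.24 to 8.98 on the other arrays. Shh 1 and Shh 2 thus stood apart from the other 7 arrays in Eif2s3y, and Vehicle 2, Vehicle 3 and Shh 3 from the rest in Xist. The treatments were therefore not alike in these 2 genes. Their part in the differences for Shh, for Ihh and for both ligands was not tested.

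Over both ligands, Tcf21 rose 1.38-fold and Prrx1 fell 2.11-fold. The mean of Nkx2-3 was 1.32-fold higher, with all 6 treated arrays above every Vehicle array, but it did not pass the test. The other 6 factors differed by at most 0.15 log2. Of the 9 factors 1 rose and 1 fell in the comparison of 6 treated with 3 Vehicle arrays at an adjusted p below 0.05 (limma with Benjamini-Hochberg adjustment over all genes). That is 22.2% of the 9, beside 1.51% of all 18193 genes. The groups did not overlap for 3 of the 9, which is 33.3%, beside 6.47% of all genes. Between 3 and 3 arrays, groups without overlap are more common. Of all 18193 genes, 1739 lay higher and 2070 lower without overlap for Shh against Vehicle. The numbers were 1032 and 1482 for Ihh against Vehicle, and 1705 and 1443 for Shh against Ihh. Of the 9 factors, 4, 4 and 3 did not overlap in these comparisons. The median difference over the 9 was -0.02 log2, and over all genes it was 0.00. In bulk RNA, fewer cells of a type and less RNA per cell cannot be told apart, and this holds for every difference given here.

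**Figure D1:**
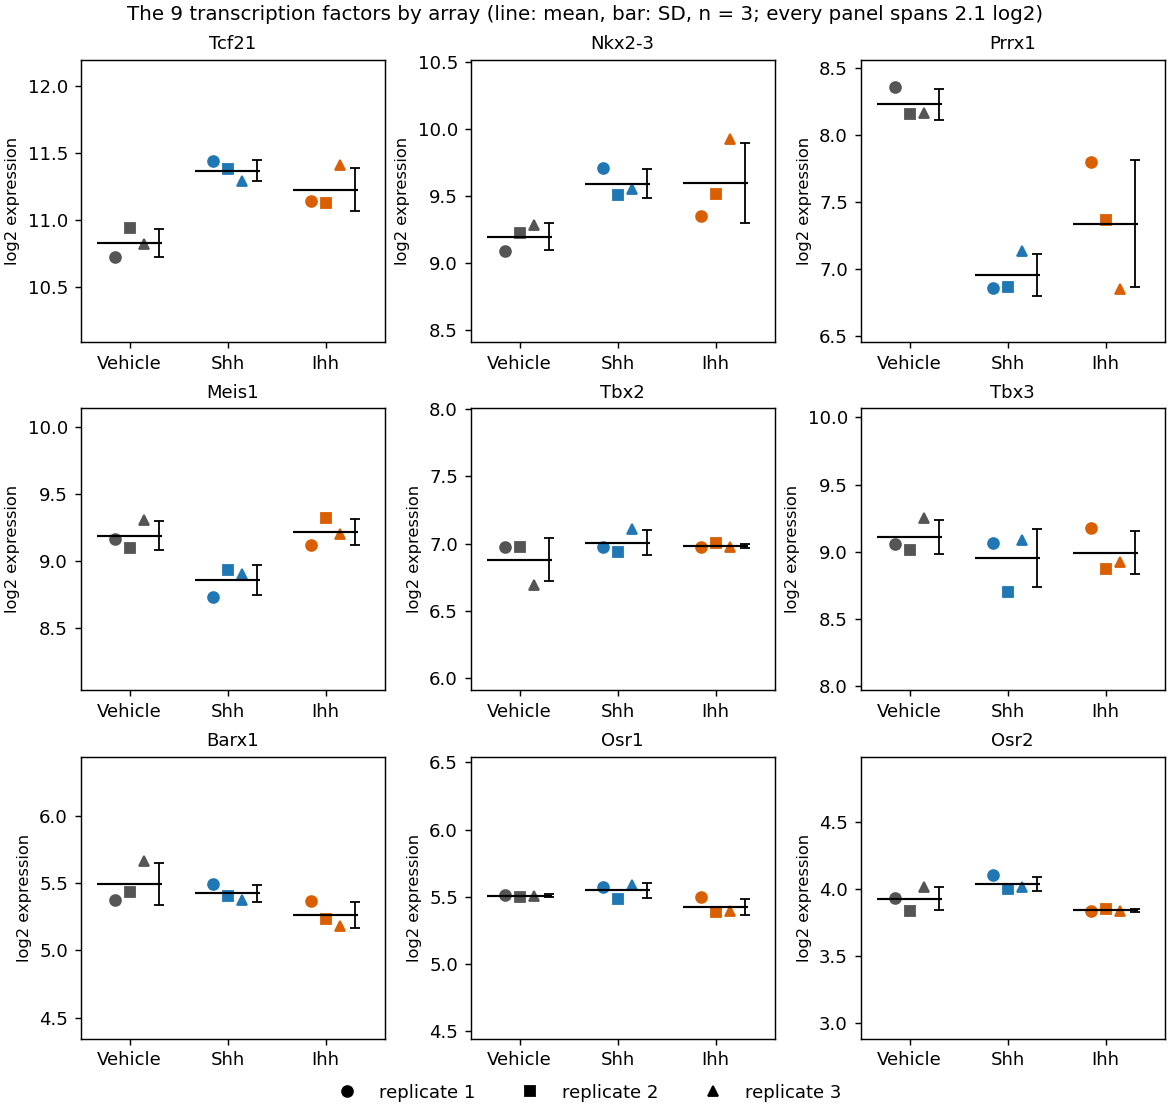
Log2 expression of the representative probe set of each of the 9 factors on the 3 Vehicle, 3 Shh and 3 Ihh arrays (symbols mark the replicate number, lines the mean, bars the SD, n = 3), with every panel spanning the same range of log2 values. The treated arrays lie above Vehicle for Tcf21 (11.13 to 11.44 against 10.73 to 10.94) and Nkx2-3, and below it for Prrx1 (6.85 to 7.80 against 8.16 to 8.36). For Meis1 the Shh arrays alone lie below Vehicle. The differences of Nkx2-3 and Meis1 did not pass the test.

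Tcf21 (probe set 1417447_at) was at 10.73, 10.94 and 10.82 on Vehicle 1, 2 and 3. It was at 11.44, 11.38 and 11.29 with Shh and at 11.14, 11.13 and 11.41 with Ihh. Every treated array thus lay above every Vehicle array, and the Ihh arrays overlapped the Shh arrays. The mean was 10.83 ± 0.11 with Vehicle, 11.37 ± 0.08 with Shh and 11.23 ± 0.16 with Ihh (mean ± SD over n = 3 arrays). The rise was 0.47 ± 0.08 log2 for both ligands (SE, adjusted p = 0.0197, limma) and 0.54 ± 0.09 for Shh (adjusted p = 0.0211). For Ihh the difference of 0.40 ± 0.09 did not pass (adjusted p = 0.106). The direct difference between the ligands was 0.14, with a 95% interval of -0.06 to 0.34, so a difference between Shh and Ihh was not shown. A second probe set, 1458887_at, was lower in signal and moved the same way. It lay at 6.56 to 6.89 with Vehicle, 7.01 to 7.20 with Shh and 6.95 to 7.44 with Ihh, again without overlap, at a difference of 0.37 log2 that did not pass when every probe set was tested singly (adjusted p = 0.193). The call of Tcf21 for both ligands ended without Vehicle 1 or Shh 2 (adjusted p up to 0.104), and that for Shh without Vehicle 1, Shh 1 or Shh 2 (up to 0.0898). With the 2 probe sets averaged neither call held (0.0616 for both ligands, 0.0734 for Shh).

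Nkx2-3 had 3 probe sets and all were higher with the ligands. Probe set 1425827_at was at 9.09, 9.22 and 9.28 on Vehicle 1, 2 and 3, at 9.71, 9.51 and 9.56 with Shh and at 9.35, 9.52 and 9.93 with Ihh. All 6 treated arrays exceeded all Vehicle arrays, and the Ihh arrays spread most widely. The differences were 0.39 ± 0.13 log2 for Shh (SE, adjusted p = 0.150) and 0.40 ± 0.13 for Ihh (adjusted p = 0.317), and 0.40 ± 0.11 for both (adjusted p = 0.136, limma). The ligands differed by -0.01, with a 95% interval of -0.30 to 0.29. Probe set 1452528_a_at showed the larger shift, from 7.57 to 7.90 with Vehicle to 8.23 to 8.59 with Shh and 8.15 to 8.76 with Ihh. Its difference for both ligands was 0.63 log2 (adjusted p = 0.0714 with every probe set tested singly). Probe set 1427741_x_at lay at 5.03 to 5.47 with Vehicle and at 5.44 to 5.95 on the treated arrays, and there Vehicle 2 overlapped the treated arrays. Nkx2-3 passed the threshold for both ligands only with array weights (adjusted p = 0.0491) and for Shh only without Ihh 3 (adjusted p = 0.0477), among the alternatives run.

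Prrx1 changed most among the 9 factors. Probe set 1425528_at was at 8.36, 8.16 and 8.17 on Vehicle 1, 2 and 3 and at 6.86, 6.87 and 7.14 with Shh. With Ihh it was at 7.80, 7.36 and 6.85, so that Ihh 3 lay at the level of the Shh arrays, Ihh 1 nearest to Vehicle, and all 3 below every Vehicle array. The means were 8.23 ± 0.11 with Vehicle, 6.96 ± 0.16 with Shh and 7.34 ± 0.47 with Ihh (mean ± SD over n = 3 arrays). Prrx1 fell by 1.08 log2 for both ligands (SE 0.17, adjusted p = 0.0134, limma) and by 1.27 for Shh (SE 0.19, adjusted p = 0.0141), which is 2.41-fold. For Ihh the difference of -0.89 ± 0.19 did not pass (adjusted p = 0.0965). Without Ihh 1, the highest Ihh array, the Ihh difference was -1.12 and passed (adjusted p = 0.0207). Between the ligands Prrx1 differed by -0.38, with a 95% interval of -0.81 to 0.05. The call for both ligands ended without Vehicle 1 or Vehicle 2 (adjusted p up to 0.0788), and that for Shh also without Shh 1 or Shh 2 (up to 0.0739).

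The other 5 probe sets of Prrx1 were lower in signal, and all 6 had a mean below Vehicle over both ligands. With every probe set tested singly, 3 of the 6 passed for both ligands and 3 for Shh, beside 0.804% and 0.946% of all probe sets. The largest difference was that of 1439774_at, at 6.94, 6.55 and 6.35 on Vehicle 1, 2 and 3, at 4.39, 4.97 and 5.09 with Shh and at 6.03, 5.72 and 5.34 with Ihh. Here the 3 groups did not overlap, in the order Vehicle, Ihh and Shh. Since the Shh arrays reached below the array medians, the fall of 1.80 log2 with Shh (adjusted p = 0.00637) may be understated. That call held on leaving out each array in turn (adjusted p up to 0.0371), and the call for both ligands ended without Vehicle 1 (0.0696). The direct difference of -0.88 between Shh and Ihh did not pass (adjusted p = 0.197). Probe set 1425526_a_at lay at 6.14 to 6.26 with Vehicle and at 5.43 to 5.81 on the treated arrays (adjusted p = 0.0189 for both ligands, up to 0.0747 without Vehicle 1, Vehicle 2 or Ihh 2). The dim probe sets 1425527_at and 1432129_a_at were lower by 0.43 and 0.24 log2 with overlap of the groups, and 1458004_at, at 3.69 to 4.15 on all arrays, differed by -0.02.

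**Figure D2:**
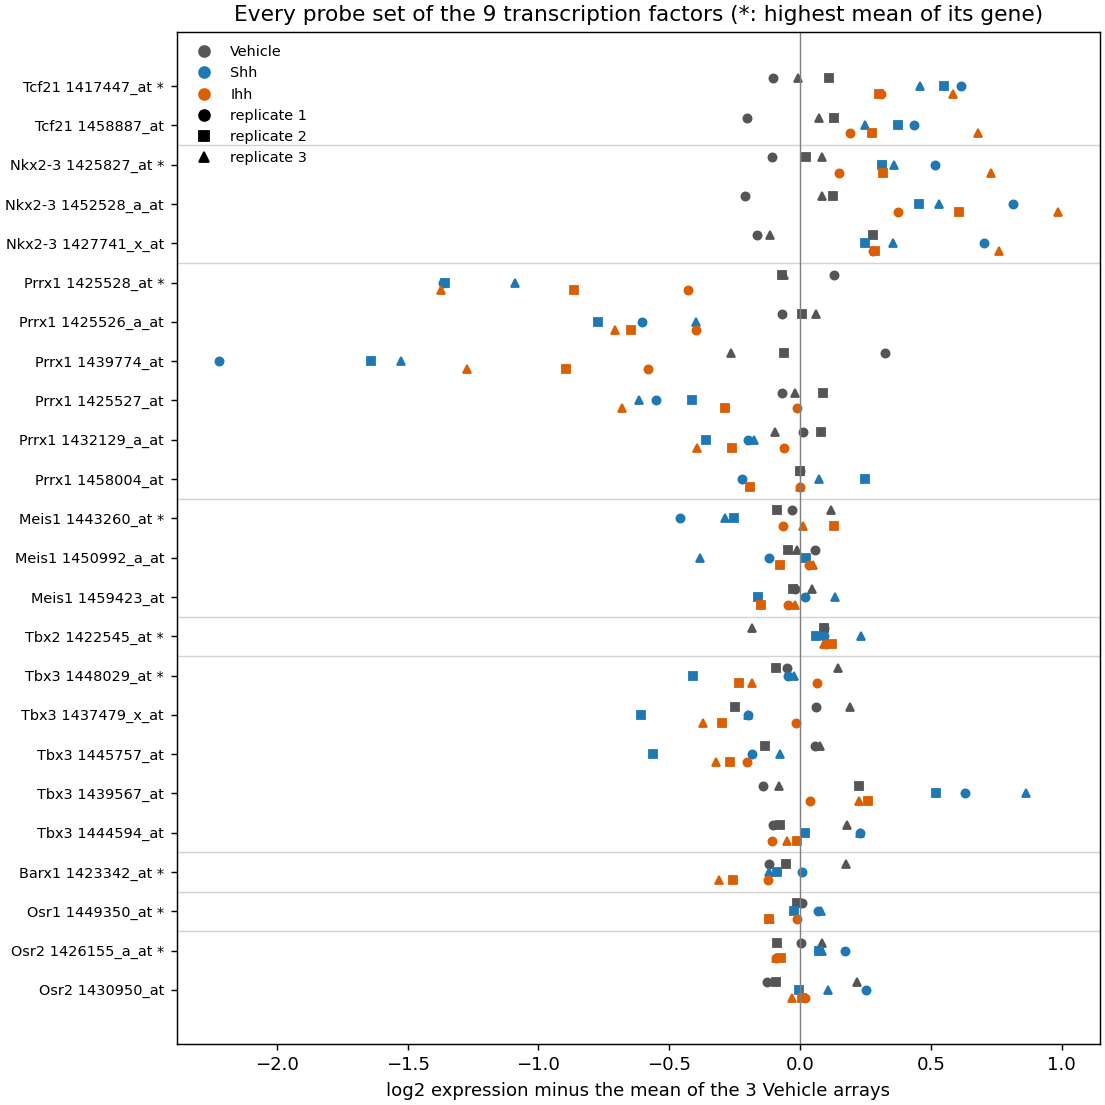
Each of the 24 probe sets on each array, as log2 expression minus the mean of the 3 Vehicle arrays (colours mark the treatment, symbols the replicate number, the asterisk the probe set with the highest mean of its gene). The probe sets of Tcf21 and Nkx2-3 lie to the right and the brighter ones of Prrx1 to the left with both ligands. The dimmer 1439567_at of Tbx3 runs against the brighter probe sets of that gene.

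Some values that differ between the arrays moved together with Prrx1 or Nkx2-3 over the 3 Ihh arrays. The part of these and of the other values given here in the results was not tested. Within Ihh, where Prrx1 was 7.80, 7.36 and 6.85 on arrays 1, 2 and 3, the mean of the 7 endothelium markers was 9.06, 8.89 and 8.57. The mean of the 5 enteric neuron and glia markers measured was 8.47, 8.31 and 8.11 on these arrays, and that of the 7 smooth muscle markers was 9.54, 10.00 and 10.15. Nkx2-3 was at 9.35, 9.52 and 9.93 on them, in the order of the smooth muscle mean. Tcf21 was at 11.14, 11.13 and 11.41, highest on Ihh 3. The fibroblast, mesothelium and interstitial cell of Cajal means also fell from Ihh 1 to Ihh 3. On Shh 1, 2 and 3 the endothelium mean was 8.52, 8.67 and 8.64, not in the order of Prrx1 (6.86, 6.87 and 7.14). The enteric neuron and glia mean was 8.03, 8.07 and 8.12 there, in the order of Prrx1. The smooth muscle mean was 10.13, 10.05 and 9.67 there, not in the order of Nkx2-3 (9.71, 9.51 and 9.56). Over the groups the endothelium mean was 8.85 to 9.14 with Vehicle, 8.52 to 8.67 with Shh and 8.57 to 9.06 with Ihh, and 0 of its 7 markers passed for both ligands while 1 fell with Shh. The macrophage mean was 9.58 to 9.80 with Vehicle and 9.35 to 9.46 on the treated arrays, with 2 of 8 markers higher and 3 lower past the threshold. As a sign of RNA quality, the 3' minus the 5' probe set of Gapdh was -0.08 to 0.03 with Vehicle, -0.18 to -0.15 with Shh and -0.19 to -0.04 with Ihh.

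RefSeq promoters of build GRCm38.p6 were matched for 5 of the 9 factors, and those of the 3 factors whose treated arrays stood apart from Vehicle are shown, as the 250 bases before the start of the gene on its own strand. Capitals mark matches, on either strand, to the GLI consensus core GACCACCC, the TATA box TATAAA, the CCAAT box CCAAT, the GC box GGGCGG and the homeodomain core TAATTA. The first 2 sequences belong to genes that were higher with the ligands, and the third to the gene that fell.
Tcf21, chr10:22820144-22820393, minus strand: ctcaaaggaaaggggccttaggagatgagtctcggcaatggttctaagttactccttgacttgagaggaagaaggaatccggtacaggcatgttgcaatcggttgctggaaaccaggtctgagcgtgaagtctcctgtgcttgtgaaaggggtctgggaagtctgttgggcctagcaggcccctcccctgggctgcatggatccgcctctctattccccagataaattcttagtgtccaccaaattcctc
Nkx2-3, chr19:43612075-43612324, plus strand: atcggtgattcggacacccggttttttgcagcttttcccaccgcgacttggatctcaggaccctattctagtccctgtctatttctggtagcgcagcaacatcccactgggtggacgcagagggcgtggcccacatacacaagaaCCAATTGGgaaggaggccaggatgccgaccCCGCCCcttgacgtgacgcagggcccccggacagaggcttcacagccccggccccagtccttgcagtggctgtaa
Prrx1, chr1:163313651-163313900, minus strand: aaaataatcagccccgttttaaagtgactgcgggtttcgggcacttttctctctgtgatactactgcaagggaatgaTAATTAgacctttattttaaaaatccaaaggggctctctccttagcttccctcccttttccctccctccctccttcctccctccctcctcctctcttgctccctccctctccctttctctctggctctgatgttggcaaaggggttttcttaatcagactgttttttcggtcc
The letters GACCACCC occur in 0 of the 5 windows, and in 0.703% of the 32851 promoter windows of the same length. The Prrx1 window holds 1 match to TAATTA, which 4.84% of all windows hold, starting 173 bases before the start. The Nkx2-3 window holds CCAAT once on each strand, as an overlapping pair, and 1 GC box, present in 33.8% and 32.7% of all windows, and the Tcf21 window holds none of the 5 motifs. The share of G and C was 52.4% for Tcf21, 60.0% for Nkx2-3 and 47.6% for Prrx1, beside a median of 52.4% over all windows. The nearest measured coding genes on either side of these 3, in the order RefSeq gives, differed little from Vehicle. Beside Tcf21, Tbpl1 and Eya4 differed by 0.01 and 0.11 log2 for both ligands. Beside Nkx2-3, Got1 and Slc25a28 differed by 0.00 and -0.12. Beside Prrx1, Mroh9 and Mettl11b differed by 0.05 and -0.02, and limma called 0 of these 6 neighbours, with adjusted p of 0.398 or more.

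Meis1 was lower with Shh and not with Ihh. Probe set 1443260_at was at 9.16, 9.10 and 9.31 on Vehicle 1, 2 and 3, at 8.73, 8.94 and 8.90 with Shh and at 9.12, 9.32 and 9.20 with Ihh. The 3 Shh arrays lay below all 6 other arrays, and Ihh overlapped Vehicle. Groups of 3 arrays without overlap are common among all genes, as given above. The Shh difference from Vehicle was -0.33 ± 0.08 log2 (SE, adjusted p = 0.0745) and that from Ihh -0.36 ± 0.08 (95% interval -0.54 to -0.18, adjusted p = 0.284, limma), so neither passed over all genes. Ihh differed from Vehicle by 0.02, with a 95% interval of -0.16 to 0.21. The other 2 probe sets of Meis1 did not repeat this separation. In 1450992_a_at Shh 2 (8.28) lay above Vehicle 2 (8.22), and Shh 3 was lowest at 7.88. In 1459423_at all 9 arrays lay between 5.71 and 6.01.

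The T-box factors gave no gene-level call. Tbx2 lay at 6.69 to 6.97 with Vehicle and 6.94 to 7.11 on the treated arrays, at a difference of 0.12 log2 for both ligands (95% interval -0.04 to 0.28). Vehicle 3 was the low array, and the other Vehicle arrays lay within the treated range. Tbx3 (1448029_at) was at 9.06, 9.02 and 9.25 on Vehicle 1, 2 and 3, at 9.07, 8.70 and 9.09 with Shh and at 9.18, 8.88 and 8.93 with Ihh, with overlap in every comparison (-0.14 for both ligands, adjusted p = 0.627).

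The 5 probe sets of Tbx3 did not move together. The 3 brightest, with means above 7, were lower for both ligands by 0.14, 0.28 and 0.27 log2, and none of them passed. Probe set 1439567_at, near the array medians, went the other way. It was at 5.30, 5.66 and 5.36 on Vehicle 1, 2 and 3, at 6.07, 5.96 and 6.30 with Shh and at 5.48, 5.70 and 5.66 with Ihh. All 3 Shh arrays lay above the other 6, and the difference from Vehicle was 0.67 log2 (adjusted p = 0.0312 with every probe set tested singly). That call ended without Vehicle 1, Shh 1, Shh 2, Shh 3 or Ihh 2 (adjusted p up to 0.126), and the difference from Ihh, 0.50, did not pass (adjusted p = 0.193). Which transcripts of Tbx3 each probe set reads was not analysed here. The mean of the 5 probe sets differed by -0.04 for both ligands.

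Barx1, Osr1 and Osr2 lay below the array medians on every array, so small differences in them may be understated. Barx1 was at 5.37, 5.44 and 5.67 on Vehicle 1, 2 and 3, at 5.50, 5.40 and 5.37 with Shh and at 5.37, 5.24 and 5.18 with Ihh. The Ihh arrays lay just below all Vehicle and Shh arrays, at a difference from Vehicle of -0.23 ± 0.09 log2 (SE, adjusted p = 0.405, limma). Osr1 lay at 5.39 to 5.59 on the 9 arrays and differed by -0.02 for both ligands, with a 95% interval of -0.13 to 0.09. Osr2 (1426155_a_at) lay at 3.84 to 4.01 with Vehicle, reached 4.10 with Shh and lay at 3.83 to 3.85 with Ihh. All its Shh arrays were above its Ihh arrays, at a difference of means of 0.20 ± 0.06 log2 that did not pass (adjusted p = 0.308). The second probe set of Osr2, 1430950_at, did not repeat this separation, at 3.62 to 3.87 with Shh and 3.59 to 3.64 with Ihh.

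**Figure D3:**
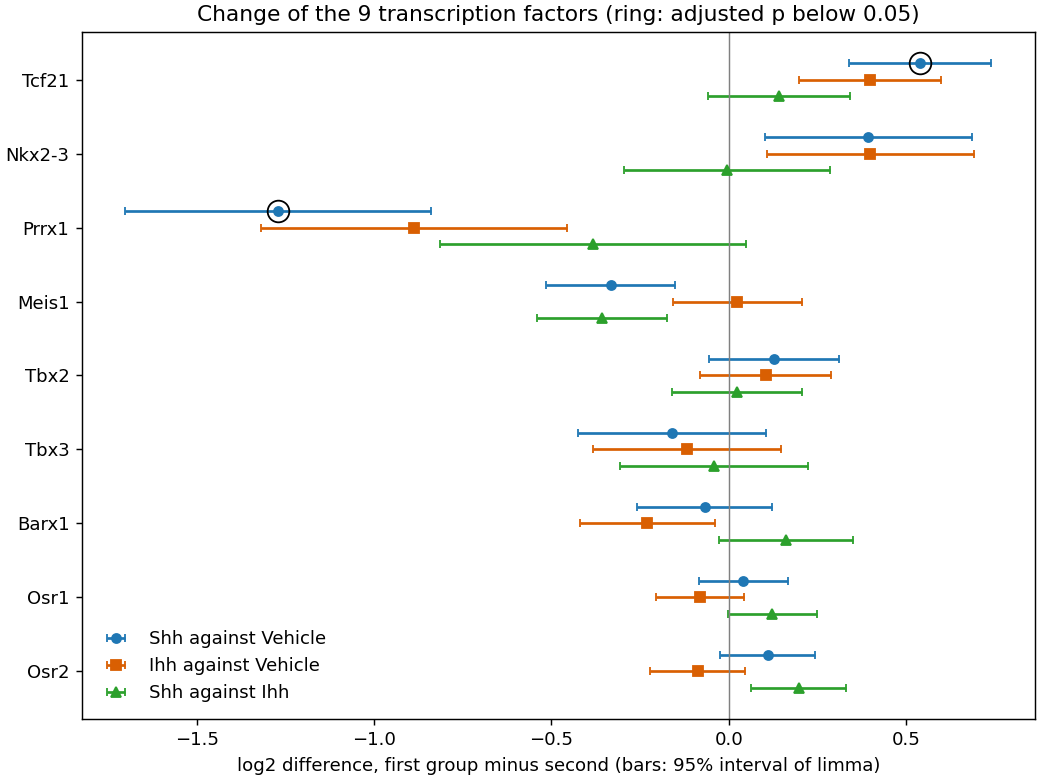
Log2 difference of each of the 9 factors for each ligand minus Vehicle and for Shh minus Ihh, with 95% intervals of limma and a ring where the adjusted p is below 0.05. Rings mark Tcf21 and Prrx1 with Shh, and the intervals of Shh minus Ihh lie on 1 side of 0 for Meis1 and Osr2 only, neither of which passed over all genes.

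By ligand, 1 of the 9 factors rose and 1 fell with Shh, beside 1.73% of all genes called. With Ihh 0 of the 9 passed, beside 0.649% of all genes. In the treatment check Ptch1 passed with Ihh (adjusted p = 0.00144, limma), while Gli1 and Hhip did not (0.0827 and 0.0690). With Shh Gli1 did not pass either (0.0871). At an unadjusted p below 0.05 there were 4 of the 9 with Ihh (9.19% of all genes), namely Tcf21, Nkx2-3, Barx1 and Prrx1, and array weights placed Prrx1 past the threshold (adjusted p = 0.0213). Between Shh and Ihh limma called 0 of the 9, beside 0.011% of all genes, with 2 of the 9 at an unadjusted p below 0.05, Meis1 and Osr2 (13.1% of all genes). Both ligand comparisons use the same 3 Vehicle arrays, so their differences are not independent. In the representative probe sets the order of the means was Vehicle, Ihh, Shh for Tcf21 upwards and for Prrx1 downwards. The Ihh and Shh arrays, next to each other in that order, overlapped in both. In 1439774_at of Prrx1 they did not overlap, as given above. The dim 1425527_at of Prrx1 had the same order of means, at 5.46, 5.13 and 4.93 with Vehicle, Ihh and Shh. There the Ihh and Shh arrays overlapped (adjusted p = 0.534 with every probe set tested singly in limma). The following probe sets showed no such step. The means with Shh and Ihh were 7.12 and 7.14 in 1458887_at of Tcf21. In Prrx1 they were 5.61 and 5.62 in 1425526_a_at, and 4.88 and 4.88 in 1432129_a_at.

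Genes whose profile over the 9 arrays was most like that of a factor were named by Pearson's r among 2279 genes with a mean of at least 6 and a range of at least 0.5 log2, as a description. The arrays share the treatment difference, which feeds into every r. For Tcf21 they were Gpc3, a cell surface proteoglycan (r = 0.982, difference for both ligands 0.49 log2), Cd300a, a leukocyte receptor (0.982), and Entpd1, an ectonucleotidase (0.977). For Prrx1 they were Abhd17c, a depalmitoylating enzyme (0.975), the growth factor Ereg (0.972) and the immediate early factor Egr1 (0.972), which differed by -0.59, -0.44 and -0.52 log2. For Nkx2-3 they were the nucleoside transporter Slc29a1 (0.952), the macrophage receptor Trem2 (0.942) and the nuclear envelope protein Syne1 (0.939). Meis1 was most like Pgm2l1 (0.971), Pak3 (0.928) and Mapk8 (0.923), and Tbx3 most like Ranbp3l (0.960), Abcc4 (0.947) and Pcsk5 (0.945). The other 4 factors ranged over less than 0.5 log2 and were not compared.

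Paralogs and partners of these factors held falls but no rise. Of the 20 measured of 21 listed, 0 rose and 2 fell for both ligands (median difference -0.01 log2), beside 0.434% of all genes that rose and 1.07% that fell. Tcf3, a helix-loop-helix protein of the E family that pairs with tissue factors such as Tcf21, lay at 8.82 to 8.85 with Vehicle, 8.31 to 8.54 with Shh and 8.59 to 8.67 with Ihh. It fell by 0.30 log2 for both ligands (adjusted p = 0.0347) and by 0.42 with Shh (adjusted p = 0.0175). Its 3 probe sets had the same direction, but their mean passed neither for both ligands (-0.23, adjusted p = 0.138) nor for Shh (-0.32, adjusted p = 0.0734). Tbx18, a T-box factor of mesothelial and mural cells, lay at 7.03 to 7.21 with Vehicle, 6.35 to 6.75 with Shh and 6.61 to 6.84 with Ihh. It fell by 0.45 log2 for both ligands (adjusted p = 0.0416) and by 0.54 with Shh (adjusted p = 0.0361). Pbx2, a homeodomain partner of Meis1, differed by -0.31 with Shh just short of the threshold (adjusted p = 0.0519). For both ligands the call of Tcf3 held without Shh 1 and that of Tbx18 without Shh 2 or Shh 3, and both ended without any other 1 array, at an adjusted p of up to 0.142 and 0.190. The call of Tbx18 also ended with every probe set tested singly (0.0542 for both ligands) and with only the arrays compared (0.0637 for Shh).

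Of the other patterning factors of gut and visceral mesenchyme, 36 of 38 were measured (median difference -0.04 log2 for both ligands). With Shh 0 rose and 2 fell, beside 1.73% of all genes called. For both ligands 0 rose and 1 fell, beside 1.51% of all genes called. The fall was that of Hlx, a homeodomain factor of visceral mesenchyme, from 8.53 to 8.63 with Vehicle to 8.20 to 8.35 with Shh and 8.27 to 8.45 with Ihh (-0.29 log2 for both ligands, adjusted p = 0.0488). Tead1, a DNA-binding partner of YAP, fell by 0.36 log2 with Shh (adjusted p = 0.0468), but the mean of its 2 probe sets, which moved apart, differed by -0.07. Sox11 differed by 0.43 for both ligands (adjusted p = 0.254), and 1 of its 6 probe sets had that direction. The call of Hlx held without Shh 1 or Ihh 1 and ended without any other 1 array (adjusted p up to 0.206), and that of Tead1 with Shh held without Shh 1 alone (up to 0.156). The call of Hlx for both ligands also ended on repeating quantile normalization (0.0516) and with every probe set tested singly (0.0698). With Shh those settings and the fit of only the arrays compared ended the calls of Hlx (0.0544 to 0.0654) and of Tead1 (0.0548 to 0.0983).

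Of 6 genes known to act downstream of these factors limma called 0 in any of the 4 comparisons, with 1 at an unadjusted p below 0.05 for both ligands. At that threshold 955 of all 18193 genes were higher and 1530 lower. The 1 gene was Tnc, the matrix protein tenascin C that Prrx1 can activate. It lay at 11.09 to 11.22 with Vehicle and 10.72 to 10.99 on the treated arrays without overlap (-0.28 log2, adjusted p = 0.0997). Sfrp2, a secreted WNT antagonist that Barx1 controls in stomach, differed by -0.37 with Shh (adjusted p = 0.169) and by -0.03 with Ihh. Cdkn1a, a cell cycle inhibitor that T-box repressors can silence, differed by -0.15 for both ligands (adjusted p = 0.717).

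**Figure D4:**
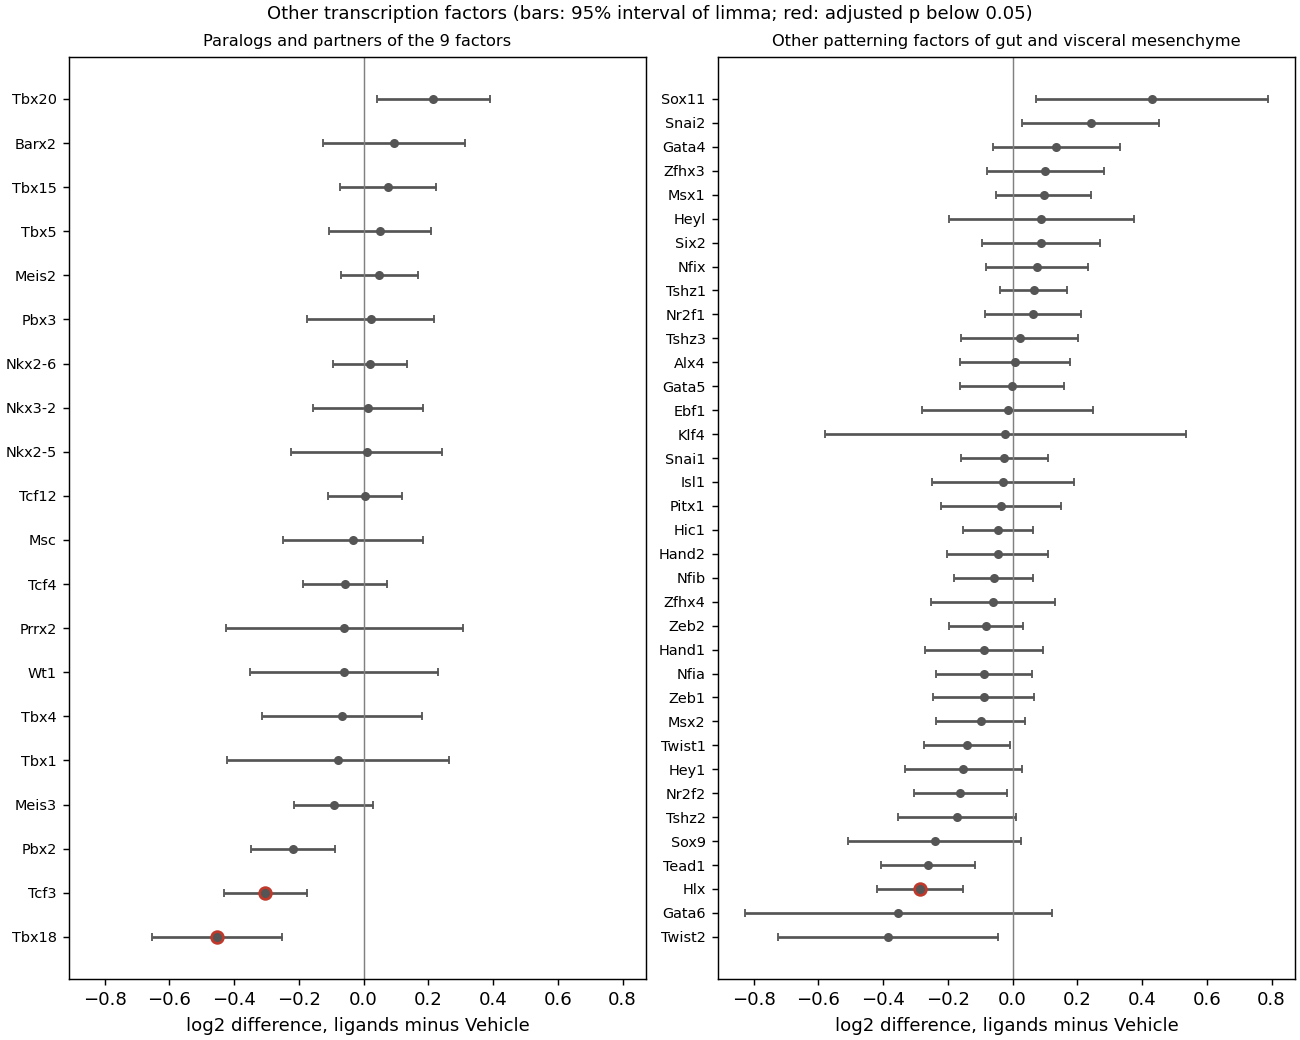
Log2 difference of both ligands minus Vehicle for the 20 measured paralogs and partners (left) and the 36 measured other patterning factors (right), with 95% intervals of limma and red marks where the adjusted p is below 0.05. The red marks are Tcf3 and Tbx18 on the left and Hlx on the right, all below 0.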

How the data were processed

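Expression was measured by Affymetrix array in 9 samples, 3 of each treatment. The authors deposited log2 expression per probe set, made with GCOS and RMA (no version stated) per the submitters' processing notes. Since RMA equalises the arrays' distributions, it hides any change common to all genes. Of non-control probe sets, 50.6% held a value shared exactly by several arrays. Names came from the platform annotation (34945 with 1 symbol, 932 with several, 9160 with none, 64 controls), and the 24 probe sets matched RefSeq identifiers with 0 symbols changed. Each of 18193 genes was represented by the brightest of its single-symbol probe sets. Group means of all 9 arrays were fitted in R 4.3.3 with limma 3.58.1, by lmFit and eBayes (6 residual and 3.88 prior degrees of freedom). Two-sided p-values got a Benjamini-Hochberg adjustment over the genes, or over all 45037 probe sets where each was tested singly. The sources used here give no batch, depth does not apply to arrays, and their number limits the precision. The steps were tested on simulated data.

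The 9 factors, the lists and the tests were chosen with earlier results of these data known. Named genes were the 9 factors with every probe set, Ptch1, Gli1 and Hhip, and of each list those past the threshold in any comparison plus the 3 with the smallest p for both ligands, and the 3 most alike genes for factors ranging over at least 0.5 log2. The neighbouring genes fall outside this rule and were chosen after values were seen. Alternatives were a replicate block, another quantile normalization, median centring, a filter under the 40th percentile of level, the mean of probe sets, every probe set singly, no less specific probe sets, a trended and robust variance, array weights, only the arrays compared, and leaving out each array. Over the 3 treatments, same-numbered arrays did not all deviate together (r of deviations between -0.297 and 0.543). Between Vehicle and Ihh all 3 same-numbered pairs had an r above 0 (0.353, 0.226 and 0.543), although the labels describe pooling at random. The differently numbered Vehicle 1 and Ihh 2 gave 0.218, so a pairing was not shown. The replicate block is given for that comparison as an alternative.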

Additional observations from a re-analysis of the deposited data

Results flagged for a closer look

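Each of the following probe sets had all 3 Shh arrays on 1 side of the Vehicle mean and all 3 Ihh arrays on the other. In Osr2 (1426155_a_at) Shh minus Ihh was 0.197 log2, and in Tbx3 (1444594_at) it was 0.214. The direct test between the ligands, with every probe set tested singly in limma, gave an adjusted p of 0.260 and 0.339, so neither difference passed. Neither probe set exceeded 4.10 log2 on any array, under all array medians.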

How the results depend on the processing

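Of 663 recomputed differences of the 9 factors over the alternatives, 646 kept their side of the threshold, 13 calls were lost, 4 were gained, and 0 called values changed sign. Most of these differences had not been called, so the 646 say little about the calls. The calls were those of Tcf21 and Prrx1 for both ligands and for Shh, and the 13 losses fell among them. Tcf21 stayed called in 15 of 18 alternatives for both ligands and in 15 of 19 for Shh. For Prrx1 it was 16 of 18 and 15 of 19. Leaving out 1 array gave 0 to 2 factors called for both ligands, 0 to 3 for Shh, 0 to 1 for Ihh and 0 to 0 between the ligands, and 99 to 416, 80 to 675, 53 to 229 and 1 to 2 genes in all. The 99 and 105 for both ligands came without Vehicle 2 and Vehicle 1, and the 416 without Vehicle 3. With probe sets averaged per gene 1 factor, Prrx1, remained called for both ligands and 1 for Shh, and Tcf21 was short of the threshold at adjusted p of 0.0616 and 0.0734. With array weights 1126 genes were called for both ligands, 1017 for Shh and 498 for Ihh, against 274, 314 and 118, and 1 factor for Ihh. With only the arrays compared 0 genes were called between the ligands, against 2. Same-numbered arrays had an r above 0 in all pairs between Vehicle and Ihh only, which does not show a pairing, as given above. With the replicate number as a block, 122 genes were called for Ihh, 522 for Shh and 379 for both ligands. The calls of the 9 factors did not change, and Hhip passed for Ihh (0.58, adjusted p = 0.00957, against 0.0690 without the block). The filter on dim genes left out Osr1, Osr2 and Barx1, for which it gives no value. The causes of these changes were not tested. Signals near background limit Osr1, Osr2, Barx1 and the dim probe sets of Prrx1 and Tbx3.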
